A study of Mus musculus domesticus and Mus musculus domesticus x Mus musculus castaneus and Mus musculus castaneus with 27 samples.

Results

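The class 3 semaphorins, their neuropilin receptors and the A-type plexins were described by their RNA levels in mouse pluripotent stem cells (PSC) and in cultured motor neurons (MN) derived from stem cells. The rule named 10 genes by symbol: Sema3a, Sema3c, Sema3d, Sema3e, Sema3f, Nrp1, Nrp2, Plxna1, Plxna2 and Plxna4. Of these, 9 were found among the 27071 gene identifiers measured, and Nrp1 was not analysed here. All 9 passed the filter on low counts in the fits reported here, and fewer did in some alternatives among PSC.

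The libraries came from cell lines of the inbred strains 129S6/SvEv (129), CAST/EiJ (CAST) and C57BL/6 (BL6), and from the F1 hybrids written CAS129 and 129CAS in the labels, which join the domesticus and castaneus subspecies. The 14 MN libraries comprised 1 of 129CAS, 3 of CAS129, 2 of 129, 1 of CAST and 7 of BL6. The 6 PSC libraries comprised 2 each of CAS129, CAST and BL6. No engineered allele and no drug treatment is named for any group, and the labels state neither which parent was the mother of a hybrid, nor a sort of the neurons, nor how many lines or cultures a group holds. RNA of MN and of PSC was extracted with different kits, so the kit and the cell type cannot be told apart. One library each stands for 129CAS MN and CAST MN, so tests of these 2 groups take their spread from the remaining groups.

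Class 3 semaphorins are secreted proteins that guide growing axons, mostly by repelling them. Most of them bind a neuropilin, which has no signalling domain of its own in the cell and hands the signal to a plexin A partner, whose intracellular part acts on small GTPases and the cytoskeleton. Sema3e is the exception in this family, since it can bind Plxnd1 without a neuropilin. Motor axons are among the axons that respond to these cues on their way out of the spinal cord, and neuropilins also bind vascular growth factors.

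Total counts ran from 5612575 to 44572794 in MN and from 4497912 to 13620056 in PSC. They differed by genotype. MN had 44572794 and 41751493 in 129, 25686979 in 129CAS, 7599737 to 10364807 in BL6 and 5612575 to 6294099 in CAS129. CAST MN, at 8652754, lay within the BL6 MN range. PSC had 12993761 and 13620056 in BL6, 8723599 and 8389385 in CAST, and 5509848 and 4497912 in CAS129. Except for CAST MN against BL6 MN, genotypes compared thus also differed in total counts. Whether groups were sequenced apart was not tested. Levels are given as CPM, which puts all libraries on one total, with a correction for their composition. Summed motor neuron markers (9 of 9 genes measured) ran from 320 to 2139 CPM in MN, against 5.29 to 38.6 CPM in PSC, although Lhx3 was at 0 in 4 MN libraries. Isl1 and Chat, which mark motor neurons, were at 7.19 to 82.3 and 1.64 to 14.9 CPM in MN, against 0.07 to 0.51 and 0 to 0.17 CPM in PSC, while Mnx1 overlapped, at 0.84 to 11.2 CPM in MN and 0.17 to 2.91 CPM in PSC. Tubb3, a tubulin of neurons, was at 271 to 1250 CPM in MN and 26.3 to 72 CPM in PSC. The MN libraries also held mesenchyme and fibroblast markers such as Col1a1 and Acta2: the sum of 12 of 12 genes was 6587 to 34230 CPM in MN, against 255 to 3116 CPM in PSC, with none at 0 in MN. In each genotype the PSC library numbered 1 had the higher mesenchyme sum, at 1369, 3116 and 2278 CPM in CAS129, CAST and BL6, against 255, 1258 and 324 CPM in the libraries numbered 2. Pluripotency markers (7 of 8 measured) summed to 353 to 970 CPM in CAS129 MN, against 8.50 to 66.6 CPM in the other MN libraries and 3268 to 4380 CPM in PSC. Markers of neural progenitors summed to 282 to 1020 CPM in MN and 62.5 to 114 CPM in PSC, of spinal interneurons to 29.3 to 550 CPM in MN and 7.89 to 25.9 CPM in PSC, of sensory neurons to 96.4 to 348 CPM in MN and 14.9 to 24.9 CPM in PSC, of glia to 26.7 to 365 CPM in MN and 30.2 to 148 CPM in PSC, and of endothelium to 16.3 to 204 CPM in MN and 67.8 to 363 CPM in PSC. The part of these other cells in the results below was not tested, and in bulk RNA fewer cells of a type cannot be told from less RNA per cell.

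Between the cell types, 8 of the 9 genes rose in MN: Sema3a, Sema3c, Sema3d, Sema3e, Nrp2, Plxna1, Plxna2 and Plxna4. The increases spanned 2.21-fold for Plxna1 to 64.7-fold for Sema3a, and Sema3f did not pass the test. The comparison took in the 3 genotypes measured in both cell types, 17 libraries in all, and accounted for genotype, and 36.1% of all genes tested rose in it. The median log2 change was 3.68 over the 9 genes, against -0.05 over all 15596 genes tested. For all 8 genes that rose, the lowest of the 14 MN libraries lay above the highest of the 6 PSC libraries. How many of all genes separate the libraries in this way was not counted.

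Among the ligands, 4 lie close together on chromosome 5 (GRCm38, between 12383385 and 17730268). Sema3a, a repellent of motor and sensory axons that signals through Nrp1 with Plxna1 or Plxna4, lies on the plus strand of chromosome 5 at 13125414 to 13602565. Its level was 83.3 CPM in 129CAS MN, 204, 167 and 215 CPM in CAS129 MN, 90.7 and 78.7 CPM in 129 MN, 58.7 CPM in CAST MN, and 77.7 at the lowest, 164 at the median and 179 at the highest in BL6 MN. In PSC it was 0.15 and 0 CPM in CAS129, 0.95 and 0 CPM in CAST, and 7.56 and 0.60 CPM in BL6. Every PSC library was thus far below every MN library, and the BL6 PSC library numbered 1 held 104 of the 112 Sema3a counts of its group. The log2 change in MN against PSC was 6.01 ± 0.68 (SE, adjusted p = 3.7e-07). A count of 0 allows up to 0.336 CPM in the CAST PSC library and 0.512 CPM in the CAS129 PSC library, from counting error alone.

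Sema3c, which binds both neuropilins and is best known for its part in the outflow tract of the heart, lies on the plus strand of chromosome 5 at 17574281 to 17730268. It reached 304 CPM in 129CAS MN, 541, 502 and 595 CPM in CAS129 MN, 280 and 281 CPM in 129 MN and 155 CPM in CAST MN, and ran from 117 over a median of 165 to 276 CPM in BL6 MN. The PSC held 2.12 and 0.34 CPM in CAS129, 6.86 and 1.34 CPM in CAST, and 8.43 and 0.45 CPM in BL6. The CAS129 MN libraries stood above all other MN libraries. Between the cell types Sema3c rose by 5.84 ± 0.69 on the log2 scale (SE, adjusted p = 6.63e-07). In each genotype the PSC library with more Sema3c was the one numbered 1, the same that had the higher mesenchyme sum. This was not particular to Sema3c: it also held for Sema3a, Sema3d, Plxna1 and Plxna2, but not for Sema3e, Sema3f, Nrp2 or Plxna4.

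Sema3d, a guidance cue for axons and for migrating cells (chromosome 5, plus strand, 12383385 to 12588948), had its highest level in the single 129CAS library. MN held 66.5 CPM in 129CAS, 43.5, 41.9 and 45.3 CPM in CAS129, 46.7 and 36.6 CPM in 129, 24.6 CPM in CAST and 6.13 to 19.0 CPM (median 10.3) in BL6. PSC held 1.06 and 0 CPM in CAS129, 1.06 and 0.34 CPM in CAST and 0.87 and 0.07 CPM in BL6. BL6 MN were the lowest of the MN groups and did not overlap with any other genotype. The log2 change was 4.97 ± 0.52 in MN against PSC (SE, adjusted p = 1.63e-07).

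Sema3e, the ligand of Plxnd1 (chromosome 5, plus strand, 14025276 to 14256689), had 60.01 CPM in 129CAS MN, 73.5, 68.5 and 69.3 CPM in CAS129 MN, 91.4 and 71.0 CPM in 129 MN, 31.2 CPM in CAST MN and 56.9 to 269 CPM (median 82.2) in BL6 MN. The PSC levels were 0.30 and 1.02 CPM in CAS129, 4.54 and 4.37 CPM in CAST and 19.0 and 25.9 CPM in BL6. The 3 PSC genotypes did not overlap, and CAST MN, at 31.2 CPM, came nearest to the PSC range. MN exceeded PSC by 3.18 ± 0.57 on the log2 scale (SE, adjusted p = 7.01e-05).

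Sema3f, a repellent that acts through Nrp2 (chromosome 9, minus strand, 107681500 to 107710475), stood at 32.7 CPM in 129CAS MN, 17.7, 21.3 and 13.9 CPM in CAS129 MN, 9.15 and 10.02 CPM in 129 MN, 13.3 CPM in CAST MN and 6.89 to 19.7 CPM (median 12.7) in BL6 MN. In PSC it was 15.9 and 17.2 CPM in CAS129, 11.1 and 15.6 CPM in CAST and 18.7 and 12.4 CPM in BL6. The MN range enclosed the whole PSC range. The log2 change of -0.35 ± 0.21 did not pass the test (SE, adjusted p = 0.145).

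Among the receptors, Nrp2, the neuropilin that Sema3f and Sema3c bind, lies on the plus strand of chromosome 1 at 62703285 to 62818695. It had 249 CPM in 129CAS MN, 304, 289 and 293 CPM in CAS129 MN, 366 and 341 CPM in 129 MN, 215 CPM in CAST MN and 225 to 299 CPM (median 252) in BL6 MN. PSC levels were 6.06 and 4.95 CPM in CAS129, 10.5 and 16.5 CPM in CAST and 24.8 and 56.6 CPM in BL6. The highest MN library had 1.70 times the Nrp2 level of the lowest, the narrowest span of the 9 genes, which reached 10.8 times for Sema3d, while the PSC genotypes stood apart from each other. Its log2 change was 3.46 ± 0.40 (SE, adjusted p = 4.77e-07).

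Plxna1, the plexin shared by several semaphorin receptors, lies on the minus strand of chromosome 6 at 89316314 to 89362620. Its MN levels were 498 CPM in 129CAS, 446, 463 and 487 CPM in CAS129, 772 and 726 CPM in 129, 421 CPM in CAST and 451 to 734 CPM (median 505) in BL6. PSC held 217 and 112 CPM in CAS129, 299 and 145 CPM in CAST and 222 and 183 CPM in BL6. All 14 MN libraries were above all 6 PSC libraries, by the smallest of the 8 increases, at 1.14 ± 0.20 on the log2 scale (SE, adjusted p = 6.72e-05). Of its exonic length, 10.7% is shared with Gm26811, an antisense gene that was not analysed here, as is 0.780% of that of Plxna4 with Plxna4os3. Whether counting used the strand is not stated, so reads of these partners may be included.

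Plxna2, which also binds class 6 semaphorins (chromosome 1, plus strand, 194618218 to 194816869), had 111 CPM in 129CAS MN, 29.6, 22.8 and 37.0 CPM in CAS129 MN, 114 and 136 CPM in 129 MN, 173 CPM in CAST MN and 64.8 to 117 CPM (median 85.4) in BL6 MN. PSC held 5.60 and 2.05 CPM in CAS129, 8.55 and 3.92 CPM in CAST and 5.38 and 4.54 CPM in BL6. CAS129 MN were below every other MN library and still above every PSC library. Plxna2 rose by 3.68 ± 0.32 on the log2 scale (SE, adjusted p = 1.57e-08).

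Plxna4, a partner of Nrp1 in the response to Sema3a (chromosome 6, minus strand, 32144268 to 32588192), had 118 CPM in 129CAS MN, 38.1, 41.2 and 36.9 CPM in CAS129 MN, 75.6 and 116 CPM in 129 MN, 91.7 CPM in CAST MN and 46.9 to 139 CPM (median 56.1) in BL6 MN. The PSC had 0.30 and 3.93 CPM in CAS129, 2.32 and 2.13 CPM in CAST and 0.80 and 0.74 CPM in BL6. Here too CAS129 MN lay below all other MN libraries. The log2 change was 5.13 ± 0.49 (SE, adjusted p = 5.16e-08).

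**Figure D1:**
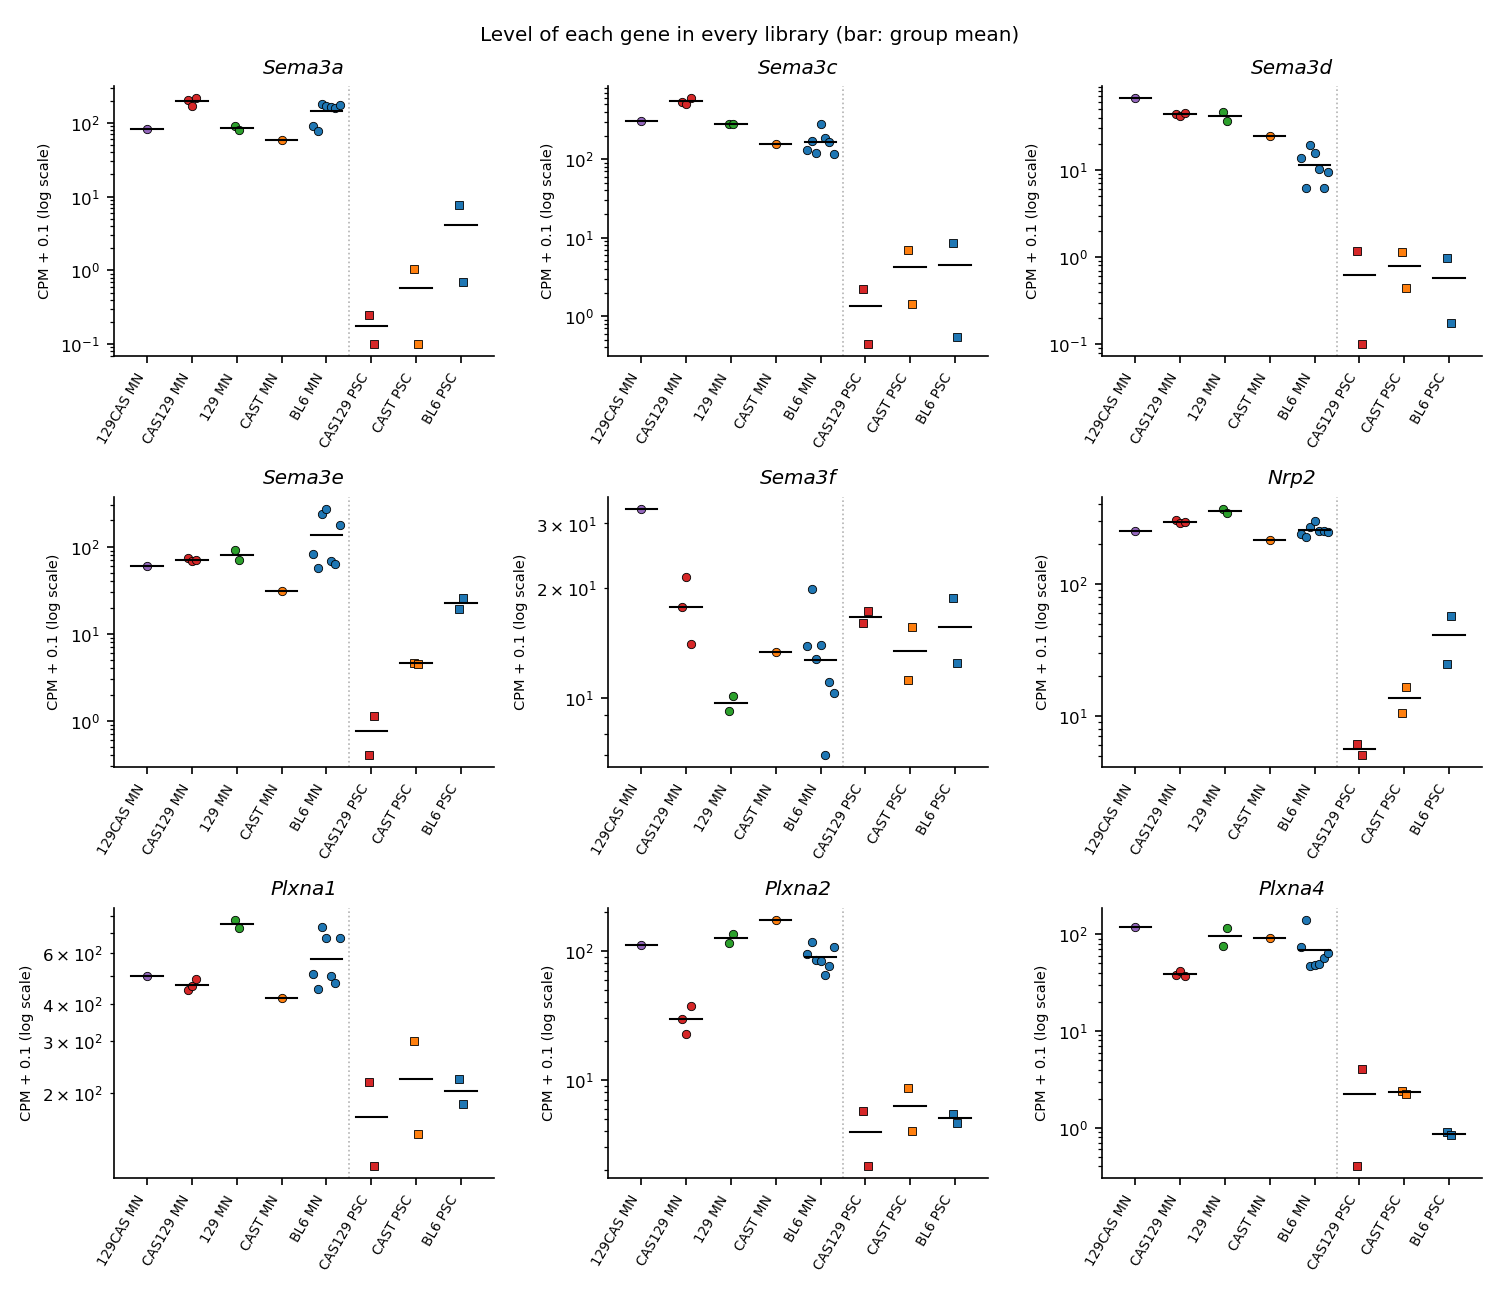
Levels of the 9 genes in every library, as CPM plus 0.1 on a log axis, with MN as circles left of the dotted line, PSC as squares right of it, and a bar at each group mean. In every panel but that of Sema3f all MN points lie above all PSC points, for example at 58.7 to 215 CPM in MN and 0 to 7.56 CPM in PSC for Sema3a.

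Per kilobase of exon, which allows genes to be compared, Plxna1 was the highest of the 9 genes in every PSC library, at 12.4 to 33.1 CPM per kb, and in all MN libraries but the 3 of CAS129, where Sema3c was higher. The make-up of both families can be read on the same scale. The 5 semaphorins summed to 34.8 to 114 CPM per kb in MN and 3.48 to 7.47 CPM per kb in PSC. Sema3c made up 28.1% to 73.0% of that sum in MN (median 60.6%), against 1.18% to 25.5% in PSC (median 6.76%). Sema3f made up 2.35% to 9.48% of the sum in MN (median 3.96%), against 45.0% to 95.4% in PSC (median 68.8%). Neither share overlapped between the cell types, and as CPM the level of Sema3f itself did overlap. Among the PSC, Sema3e was the other large component in BL6, with 27.4% and 52.8% of the sum, against 12.7% and 13.0% in CAST PSC and 0.926% and 3.17% in CAS129 PSC.

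The 3 plexins summed to 53.6 to 97.3 CPM per kb in MN and 12.8 to 33.7 CPM per kb in PSC. Plxna1 was the main plexin throughout, with 73.7% to 92.3% of the sum in MN and 96.9% to 98.6% in PSC. Plxna2 took 2.40% to 16.0% in MN, against 0.932% to 1.48% in PSC, and Plxna4 took 3.72% to 14.8% in MN, against 0.0882% to 2.17% in PSC. The lowest Plxna2 and Plxna4 shares of MN thus lay above the highest of PSC. These shares are descriptions and were not tested.

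**Figure D2:**
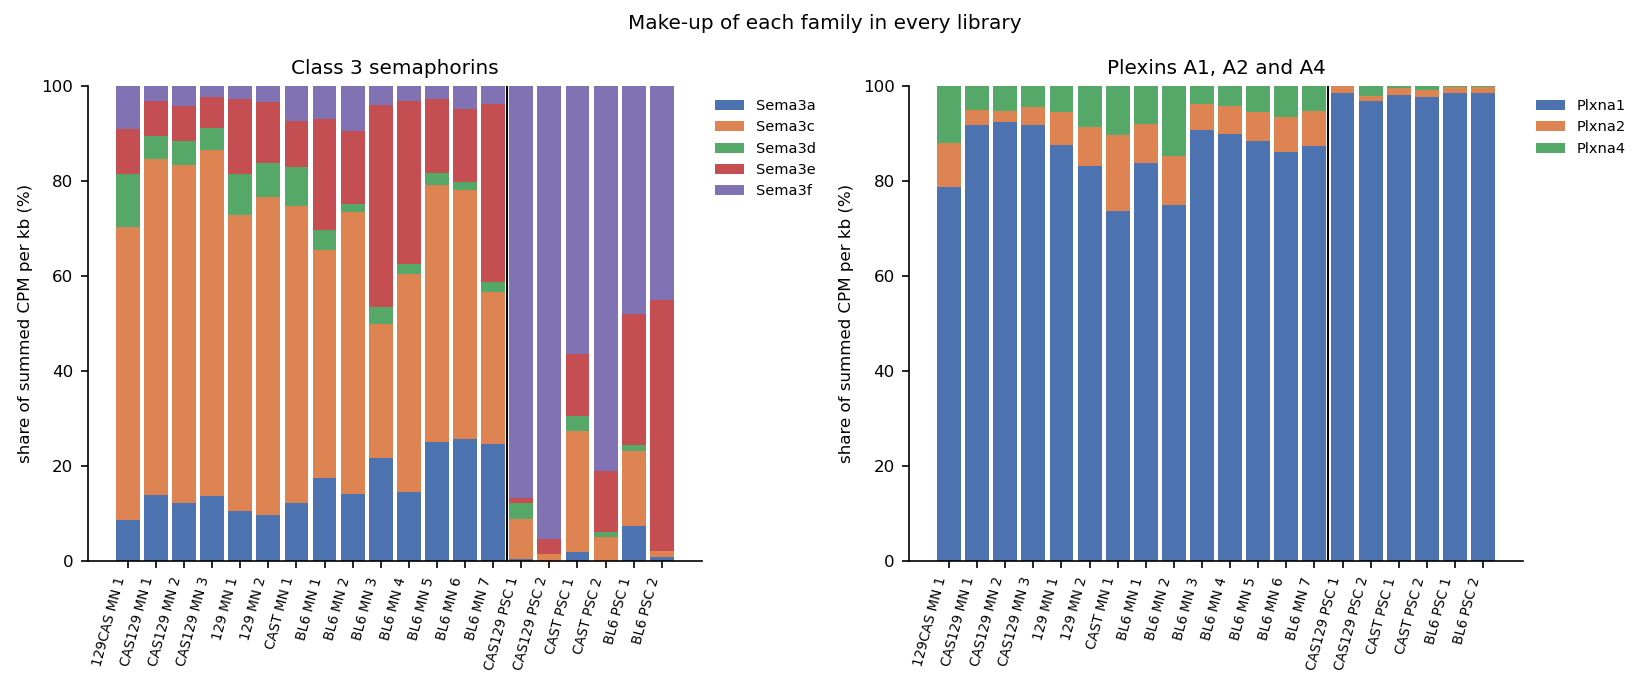
Share of each gene in the summed CPM per kb of its family (vertical axis, in percent) in each library, with the 14 MN libraries left of the vertical line and the 6 PSC libraries right of it. Sema3c is the widest band in 12 of 14 MN libraries and Sema3f in 5 of 6 PSC libraries, while Plxna1 is the widest plexin band in all 20.

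Within each genotype, the question was whether the change from stem cell to neuron depended on the strain. In CAS129, the 8 genes that rose overall were all higher in MN than in PSC (30.4% of genes tested rose). In CAST, 7 rose, all but Plxna1 among those 8 (30.3% of genes tested rose), and Plxna1 had a log2 change of 0.76 ± 0.37 (SE, adjusted p = 0.0878). In BL6, all 8 rose (36.0% of genes tested rose). These 3 comparisons came from a fit over all 8 groups and 20 libraries. Without the CAST PSC library numbered 1, the change of Plxna1 in CAST was 1.31 (adjusted p = 0.0103). Without the 3 PSC libraries numbered 1 the rise of Sema3e in CAST missed the threshold (adjusted p = 0.0631), and without the CAS129 PSC library numbered 2 that of Plxna1 in CAS129 did.

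The rise differed between CAS129 and BL6 for 4 genes, each with the larger rise in CAS129, where 13.7% of all genes tested had a higher change in CAS129. For Nrp2 the log2 change was 5.67 in CAS129 and 2.51 in BL6, a difference of 3.16 ± 0.39 (SE, adjusted p = 5.88e-05). For Sema3e it was 6.67 in CAS129 and 2.45 in BL6, a difference of 4.21 ± 1.02 (SE, adjusted p = 0.00922). Nrp2 averaged 5.50 ± 0.78 CPM in CAS129 PSC and 40.7 ± 22.5 CPM in BL6 PSC (SD, n = 2 each), and its MN levels averaged 296 ± 7.68 CPM in CAS129 (SD, n = 3) and 254 ± 23.7 CPM in BL6 (SD, n = 7). Sema3e averaged 0.664 ± 0.510 CPM in CAS129 PSC and 22.5 ± 4.86 CPM in BL6 PSC (SD, n = 2 each). Its MN levels averaged 70.4 ± 2.7 CPM in CAS129 (SD, n = 3) and 136 ± 89.7 CPM in BL6 (SD, n = 7). The larger rise of Sema3e in CAS129 thus went with a lower PSC level and not with a higher MN level. These differences use the same PSC libraries as the comparisons among PSC below. Over all genes the median of this difference was 0.26 with the scaling used and 0 with size factors of the relative log expression kind, and the share of called genes that were higher was 75.1% and 53.0% with them. The 4 genes passed the test under both.

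Sema3a and Sema3c also had a larger rise in CAS129, by 5.98 ± 1.53 (SE, adjusted p = 0.0125) and 3.56 ± 1.06 (SE, adjusted p = 0.0282) on the log2 scale. Sema3a rested on 1 count in the 2 CAS129 PSC libraries together. Against it, the 3415 counts of CAS129 MN gave a ratio of 2430, with an exact 95% interval from counting error of 435 to 95900, and the fitted value is no bound. Without the BL6 PSC library numbered 1, which had the higher mesenchyme sum, the difference was 3.29 for Sema3a (adjusted p = 0.166) and 0.33 for Sema3c (adjusted p = 0.974), while those of Nrp2 and Sema3e still passed. Without all 3 PSC libraries numbered 1, Nrp2 was the only one of the 4 that passed, with Sema3a at 6.66, Sema3c at 2.05 and Sema3e at 3.67 (adjusted p = 0.149, 0.315 and 0.0989). Sema3a also missed the threshold without either CAS129 PSC library, at adjusted p = 0.0603 without the first and 0.104 without the second, and Sema3e without the first, at 0.0809. Sema3c further missed it without the second (adjusted p = 0.195), without any one CAS129 MN library, without the BL6 MN library numbered 7 and without the 129 and 129CAS libraries. The other 5 genes did not pass: Sema3d, Sema3f, Plxna1, Plxna2 and Plxna4 had differences of 1.78 ± 1.12, 0.42 ± 0.48, 0.06 ± 0.37, -1.18 ± 0.49 and -2.22 ± 0.94 (SE). With DESeq2, Plxna2 and Plxna4 passed in the opposite direction, with the smaller rise in CAS129, at -1.46 and -2.54 (adjusted p = 0.0251 and 0.0154). Plxna4 also passed that way without the 3 PSC libraries numbered 1 (-3.26, adjusted p = 0.0406) and without the CAS129 PSC library numbered 1 (-3.23, adjusted p = 0.0136), and Plxna2 without that numbered 2 (-1.85, adjusted p = 0.03).

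Between CAST and BL6, no gene of the set differed in its rise with edgeR, where 7.28% of all genes tested did, 1 gene had an unadjusted p under 0.05, and DESeq2 called 1. That gene was Nrp2, with a log2 change of 3.81 in CAST and 2.51 in BL6, a difference of 1.31 ± 0.42 (SE, adjusted p = 0.07). Without the BL6 PSC library numbered 1 it was 1.81 (adjusted p = 0.0013), and without the CAST PSC library numbered 2 it was 1.73 (adjusted p = 0.048). The comparisons of CAS129 and of CAST share the BL6 libraries.

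**Figure D3:**
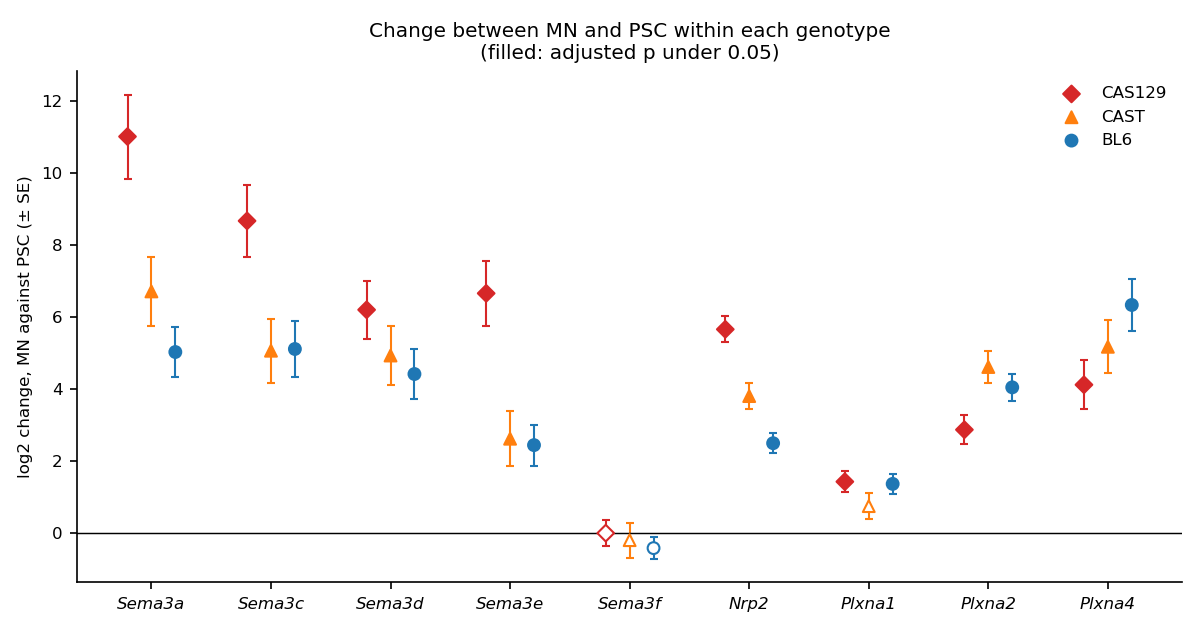
Log2 change of each gene in MN against PSC within CAS129, CAST and BL6 (vertical axis, bars are SE), filled where adjusted p was under 0.05. Nrp2 was at 5.67, 3.81 and 2.51 in the 3 genotypes, and the 3 points of Sema3f lie between -0.41 and 0.01.

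Other genes of the pathway were read from 5 lists in the same comparison of MN with PSC over 17 libraries. Of the remaining class 3 semaphorins and plexin A genes, Sema3b, Sema3g and Plxna3, 1 of 3 rose: Plxna3, a partner of Nrp2 in the response to Sema3f, by 1.45 ± 0.29 on the log2 scale. These list counts stand against 36.1% of all genes that rose and 38.5% that fell. Of 11 other semaphorins tested, 5 rose and 3 fell, with Sema6d at 6.66 ± 0.37 and Sema6a, a ligand of Plxna2 and Plxna4, at 3.15 ± 0.38, while Sema4b fell by 2.01 and Sema4d, a ligand of Plxnb1, fell by 2.46. All 3 other plexins tested rose: Plxnc1, the receptor of Sema7a, by 2.86 ± 0.44, Plxnd1, the receptor of Sema3e, by 1.23 ± 0.21, and Plxnb1 by 0.76 ± 0.33 (SE, adjusted p = 0.0475).

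Of 12 neuropilin co-receptors and vascular growth factor genes, 8 rose and 2 fell. L1cam, an adhesion molecule that joins Nrp1 in Sema3a reception, rose by 6.42 ± 0.37 and its relative Chl1 by 9.08 ± 0.63 on the log2 scale, and Flt1, a receptor of Vegfa, by 3.04 ± 0.38. Vegfa, which binds neuropilins as well as its own receptors, fell by 1.30. Of 22 intracellular genes, 16 rose and 0 fell. They included Dpysl3, of the collapsin response mediator proteins named for their part in the Sema3a response, at 6.51 ± 0.65, Mical2, of an actin-oxidising family that acts downstream of plexins, at 4.88 ± 0.45, Farp1, related to the plexin A partner Farp2, at 2.57 ± 0.25, and the small GTPase Rac1 at 0.56 ± 0.12 (SE). The medians of the 5 lists ran from 0.16 to 2.04, against -0.05 over all genes.

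Among PSC, the genotypes differed in Sema3e and Nrp2. In CAS129 PSC against BL6 PSC, Sema3e fell by 4.93 (SE 0.64, adjusted p = 0.000788) and Nrp2 fell by 2.76 (SE 0.53, adjusted p = 0.00608) on the log2 scale, where 25.8% of all genes tested changed in either direction. The libraries of these groups did not overlap for either gene, at 0.30 and 1.02 CPM of Sema3e in CAS129 PSC and 19.0 and 25.9 CPM in BL6 PSC. In CAST PSC against BL6 PSC, Sema3e fell by 2.21 (SE 0.52, adjusted p = 0.0314), where 4.81% of genes fell. In CAS129 PSC against CAST PSC it fell by 2.72 (SE 0.64, adjusted p = 0.023), where 11.7% of genes fell. The call in CAST against BL6 was lost without either CAST PSC library (adjusted p = 0.209 and 0.197) or the BL6 PSC library numbered 2 (adjusted p = 0.132). The call in CAS129 against CAST was lost without either CAST PSC library (adjusted p = 0.0874 and 0.08) or the CAS129 PSC library numbered 1 (adjusted p = 0.128). The call in CAS129 against BL6 was kept in all 10 alternatives, as was that of Nrp2.

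No other gene of the set passed in PSC with edgeR as described. Nrp2 had a log2 change of -1.48 ± 0.49 in CAST PSC against BL6 PSC (SE, adjusted p = 0.0947), and passed with DESeq2 (adjusted p = 0.0412), with no filter on low counts (0.00748) and without the BL6 PSC library numbered 1 (0.0245). In CAS129 PSC against CAST PSC it passed with no filter (-1.31, adjusted p = 0.0333). Sema3a had a log2 change of -5.30 ± 1.92 in CAS129 PSC against BL6 PSC (SE, adjusted p = 0.0764). It passed with DESeq2 (adjusted p = 0.0426), with no filter (0.00023) and without the BL6 PSC library numbered 2 (0.0455), and with no filter also in CAST PSC against BL6 PSC (-2.96, adjusted p = 0.02). From the counts alone, 1 in CAS129 PSC and 112 in BL6 PSC, the BL6 level was 51.3 times that of CAS129 with an exact 95% interval of 9.03 to 2050. The ranges of Sema3a, Sema3c, Sema3d, Sema3f, Plxna1, Plxna2 and Plxna4 overlapped between neighbours in the order of the 3 PSC genotypes. For Sema3e and Nrp2 the order was CAS129, then CAST, then BL6 from low to high, with no overlap. Each PSC genotype has only 2 libraries, and the share of all genes without overlap was not counted. The share of called genes that were higher in CAS129 PSC against CAST PSC was 16.2%, and 29.0% with upper-quartile scaling, under which the median of all genes was 0.14, against -0.06. Summed pan-neuronal markers other than Map2 moved in the same order, at 72.2 to 84.5 CPM in CAS129 PSC, 195 to 211 CPM in CAST PSC and 289 to 320 CPM in BL6 PSC. Other lists set BL6 apart the other way: endothelium markers summed to 343 to 363 CPM in CAS129 PSC, 303 to 338 CPM in CAST PSC and 67.8 to 115 CPM in BL6 PSC, and glia markers to 128 to 148, 127 to 142 and 30.2 to 50.4 CPM in the same groups. The part of these markers was not tested.

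Of 48 pathway genes tested in PSC, 4 rose and 10 fell in CAS129 against BL6, 2 rose and 2 fell in CAST against BL6, and 0 rose and 3 fell in CAS129 against CAST. Over all genes, 25.8% changed in CAS129 against BL6, near the share of the pathway genes, 5.74% rose and 4.81% fell in CAST against BL6, and 2.27% rose and 11.7% fell in CAS129 against CAST. In CAS129 PSC against BL6 PSC Sema4d rose by 1.07 and Mical3 by 0.98, while Limk2, a kinase of cofilin, fell by 1.29. In CAST PSC against BL6 PSC, Mical1 and Farp1 rose by 1.86 and 1.60 and Plxnb1 fell by 1.88. In CAS129 PSC against CAST PSC, Gsk3b, Cdk5r1 and L1cam fell by 1.41, 3.63 and 2.53.

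Among MN, CAS129 had the lowest Plxna2 and Plxna4 and the highest Sema3c of all 14 libraries. In 129CAS MN against CAS129 MN, Plxna2 rose by 1.84 ± 0.29 (SE, adjusted p = 0.000641) and Plxna4 by 1.55 ± 0.49 (SE, adjusted p = 0.03) on the log2 scale, where 14.6% of genes tested rose, and Sema3a fell by 1.29 (SE 0.43, adjusted p = 0.0376), where 15.7% fell. The single 129CAS library held 111 CPM of Plxna2, against 22.8 to 37.0 CPM in CAS129 MN. Without the CAS129 MN library numbered 1, or that numbered 3, Plxna2 was the only gene of the set that passed, and without that numbered 2, Plxna4 did not pass. Summed pan-neuronal markers other than Map2 were 2270 CPM in 129CAS MN and 539 to 691 CPM in CAS129 MN, and mesenchyme markers 9152 CPM in 129CAS MN and 22780 to 26360 CPM in CAS129 MN.

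In CAS129 MN against 129 MN, Sema3a, Sema3c and Sema3f rose by 1.27 ± 0.32, 1.03 ± 0.31 and 0.95 ± 0.35 (SE, adjusted p = 0.00489, 0.0139 and 0.0346), where 25.2% of genes tested rose. Plxna2, Plxna4 and Plxna1 fell by 2.002, 1.23 and 0.62 (SE 0.24, 0.41 and 0.20, adjusted p = 1.6e-05, 0.0207 and 0.0201), where 31.4% fell. Plxna2 averaged 29.8 ± 7.13 CPM in CAS129 MN (SD, n = 3) and 125 ± 15.0 CPM in 129 MN (SD, n = 2), and Plxna1 465 ± 20.6 and 749 ± 33.0 CPM in the same groups. Of the 9 genes, 3 were thus higher and 3 lower in CAS129 MN than in 129 MN, near the shares of all genes. The call of Sema3f was kept in 6 of 12 alternatives. With upper-quartile scaling, which moved the median of all genes to 0.04 from -0.14, Plxna1 did not pass. Without the 129 MN library numbered 2, Plxna2 alone passed, and without that numbered 1, or without the CAS129 MN library numbered 1, 3 genes passed. Mesenchyme markers summed to 22780 to 26360 CPM in CAS129 MN and to 6587 and 10660 CPM in 129 MN, and pan-neuronal markers other than Map2 to 539 to 691 CPM in CAS129 MN and 1584 and 2376 CPM in 129 MN.

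In CAS129 MN against BL6 MN, Sema3d and Sema3c rose by 1.98 ± 0.28 (SE, adjusted p = 5.05e-05) and 1.755 ± 0.22 (SE, adjusted p = 1.72e-05), and Nrp2 by 0.26 ± 0.10 (SE, adjusted p = 0.0406), where 27.0% of genes tested rose. Plxna2 fell by 1.56 (SE 0.20, adjusted p = 2.59e-05), where 32.5% fell. Sema3c averaged 546 ± 46.7 CPM in CAS129 MN (SD, n = 3) and 166 ± 55.2 CPM in BL6 MN (SD, n = 7), and Plxna2 29.8 ± 7.13 and 89.7 ± 18.1 CPM in the same groups. The calls of Sema3c, Sema3d and Plxna2 were kept in all 17 alternatives, and that of Nrp2 in 5 of them. With upper-quartile scaling, under which the median of all genes was 0.07, against -0.08, Sema3a and Sema3f passed as well, with log2 changes of 0.63 and 0.68, and Sema3f also passed without the BL6 MN library numbered 2 (0.67, adjusted p = 0.0185). Plxna4, at -0.79 ± 0.33 (SE, adjusted p = 0.0558), passed with DESeq2 (adjusted p = 0.0335) and without the BL6 MN library numbered 2, 3, 4 or 5 (adjusted p = 0.0214, 0.0363, 0.0414 and 0.0467). The mesenchyme sum of CAS129 MN, 22780 to 26360 CPM, lay within the 15120 to 34230 CPM of BL6 MN, while the pan-neuronal sum other than Map2, 539 to 691 CPM, lay below the 1273 to 3735 CPM of BL6 MN.

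In 129 MN against BL6 MN, Sema3d rose by 1.85 ± 0.31 (SE, adjusted p = 0.000424), Sema3c by 0.73 ± 0.26 (SE, adjusted p = 0.0411) and Nrp2 by 0.45 ± 0.11 (SE, adjusted p = 0.00814), where 18.3% of genes tested rose. Sema3a fell by 0.80 (SE 0.29, adjusted p = 0.0447), where 18.1% fell. Among these, Sema3d averaged 41.6 ± 7.19 CPM in 129 MN (SD, n = 2) and 11.4 ± 4.82 CPM in BL6 MN (SD, n = 7). Its call was kept in all 16 alternatives and that of Nrp2 in 15, whereas those of Sema3c and Sema3a were each kept in 6. The 78.7 and 90.7 CPM of Sema3a in 129 MN lay within the BL6 MN range of 77.7 to 179 CPM. Without the BL6 MN library numbered 2, Plxna2 and Plxna4 passed as well, at 0.51 and 0.71 (adjusted p = 0.0328 and 0.00664). Mesenchyme markers summed to 6587 and 10660 CPM in 129 MN and 15120 to 34230 CPM in BL6 MN, and pluripotency markers to 55.6 and 66.6 CPM in 129 MN and 8.50 to 27.2 CPM in BL6 MN, with no overlap for either list.

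In CAST MN against BL6 MN, 1 gene passed: Plxna2 rose by 0.91 ± 0.26 (SE, adjusted p = 0.0385), where 5.76% of genes tested rose. The single CAST library had 173 CPM, against 64.8 to 117 CPM in BL6 MN. The call was lost without BL6 MN replicate 1, 3, 4 or 6, and kept without the other 3. Sema3a and Sema3e had log2 changes of -1.33 ± 0.41 and -2.15 ± 0.86 (SE, adjusted p = 0.0517 and 0.122). Sema3a passed with DESeq2 (adjusted p = 0.0104), with thinned counts (0.0488) and without the BL6 MN library numbered 1 or 2 (0.0318 and 0.00618), and Sema3e with DESeq2 (0.0251). Sema3d passed without the BL6 MN library numbered 3 (adjusted p = 0.0489) and Plxna4 without that numbered 2 (0.0476). CAST MN had the lowest MN level of Sema3a, Sema3e, Nrp2 and Plxna1 and the highest of Plxna2. It also had the highest motor neuron and pan-neuronal (other than Map2) sums of the 14, at 2139 and 3859 CPM. With Map2 the pan-neuronal sum was 4421 CPM in CAST MN and higher, at 4488 CPM, in the BL6 MN library numbered 2. The mesenchyme sum of CAST MN was 9636 CPM, below every BL6 MN library (15120 to 34230 CPM).

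**Figure D4:**
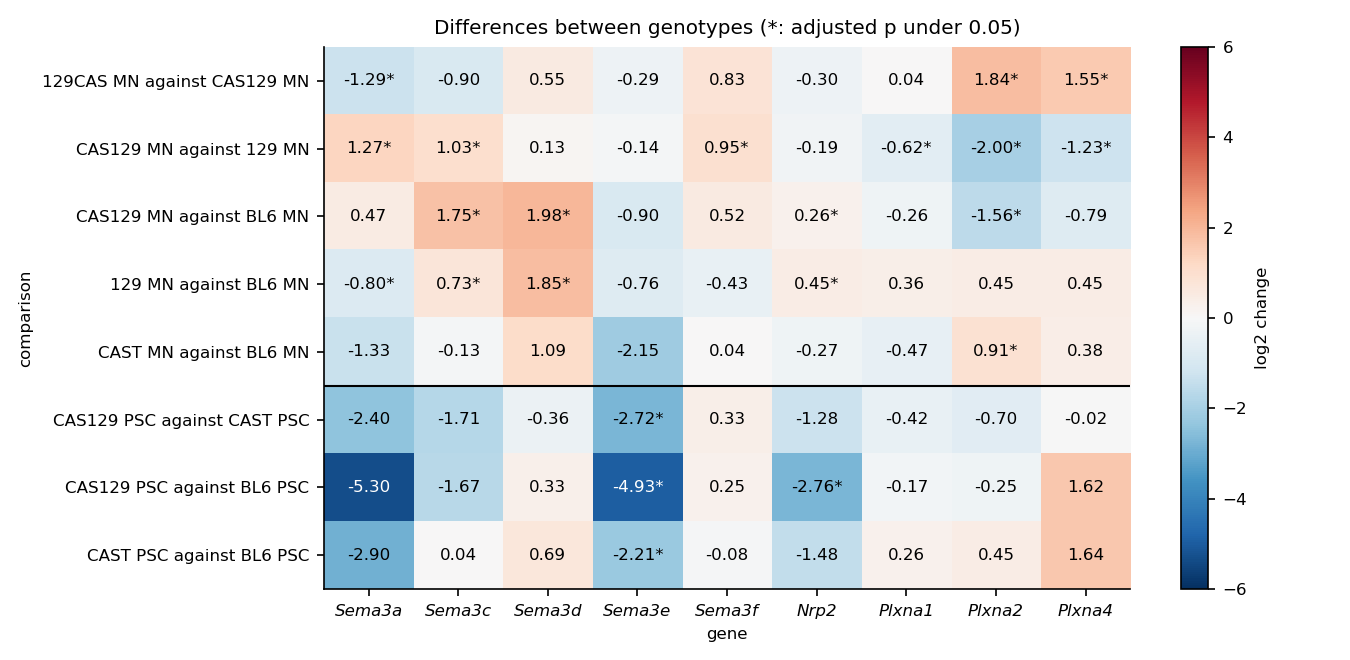
Log2 change of each gene (columns) in the 5 comparisons of MN genotypes above the line and the 3 of PSC genotypes below it (rows), with a star where adjusted p was under 0.05. In CAS129 MN against 129 MN the 3 plexins are at -0.62, -2.002 and -1.23, and Sema3e is below 0 and starred in all 3 PSC rows.

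In the order of mean MN levels, 129CAS led for Sema3d, Sema3f and Plxna4, CAS129 for Sema3a and Sema3c, 129 for Nrp2 and Plxna1, CAST for Plxna2 and BL6 for Sema3e. CAS129 was the lowest for Plxna2 and Plxna4, without overlap with BL6, its neighbour in both orders. For Sema3a, the ranges of CAS129 and BL6 overlapped, and so did those of BL6 and 129. For Sema3e, BL6, 129 and CAS129 overlapped in turn, and for Plxna1, 129 overlapped with BL6, and BL6 enclosed 129CAS. For Sema3c, neighbours overlapped only between BL6 and CAST. Since 129CAS and CAST are 1 library each, their ranges are single values, which overlap with others less readily. Here and in the levels above, the share of all genes that separate MN genotypes without overlap was not counted.

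Within BL6 MN, the 7 libraries were uneven for some genes. Sema3e was at 179, 234 and 269 CPM in 3 libraries and at 56.9 to 82.2 CPM in the other 4. Sema3a was at 77.7 and 91.4 CPM in 2 libraries and at 157 to 179 CPM in the other 5. Plxna4 reached 139 CPM in the library numbered 2, against 46.9 to 74.5 CPM in the other 6. That library also had the highest pan-neuronal sum other than Map2 of its group, 3735 CPM against 1273 to 2304 CPM. Its motor neuron sum was the highest too, 1854 CPM against 616 to 1077 CPM. So were its glia sum, 365 CPM against 26.7 to 64.5 CPM, and its spinal interneuron sum, 550 CPM against 73.1 to 332 CPM. Its sensory neuron and neural progenitor sums were the lowest of the group. Over the MN libraries as a whole, the 3 with the lowest pan-neuronal sums, all CAS129, were those with the lowest Plxna2 and Plxna4. The same 3 had the lowest motor neuron and spinal interneuron sums and the highest pluripotency sums. Their neural progenitor sums were the highest as well, at 936 to 1020 CPM, against 282 to 617 CPM in the other MN libraries. The part of these markers in the levels was not tested. Map2 was left out of these sums after its values were seen, since it was at 0 in the 4 hybrid MN libraries. Of 8609 genes with at least 10 CPM in every BL6 and CAST MN library, 366 were at 0 in all hybrid MN libraries. In PSC, 350 of 7602 genes chosen in the same way were at 0 in the CAS129 libraries. The cause of these zeros was not tested, and whatever it is may touch any comparison with a hybrid, in MN or PSC. No gene of the set, and none of the pathway lists, was among the 366. Sema3d and Sema3f could not be among them, since their lowest BL6 MN levels were 6.13 and 6.89 CPM.

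**Figure D5:**
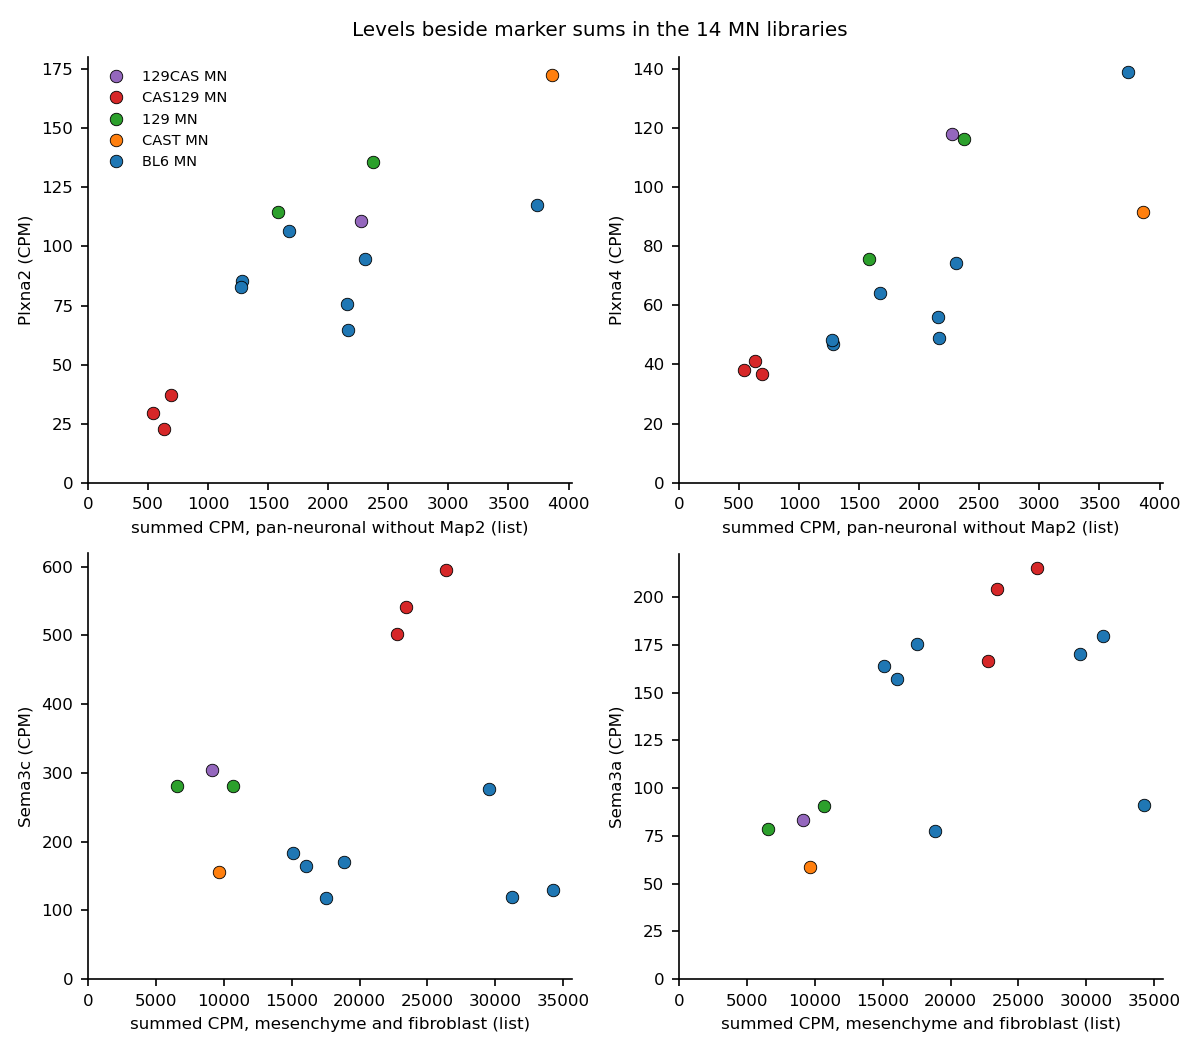
Level of Plxna2 and Plxna4 (CPM) beside the summed CPM of 7 pan-neuronal markers, and of Sema3c and Sema3a beside that of 12 mesenchyme and fibroblast markers, in the 14 MN libraries coloured by genotype. The 3 CAS129 points lie at the lower left for the plexins, at 539 to 691 CPM of neuronal markers, and at the top for Sema3c, at 502 to 595 CPM.

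Of 51 pathway genes tested in MN, 19 rose and 4 fell in 129CAS against CAS129, 9 rose and 19 fell in CAS129 against 129, 9 rose and 22 fell in CAS129 against BL6, 5 rose and 10 fell in 129 against BL6, and 4 rose and 6 fell in CAST against BL6. Over all genes, the shares that rose and fell in these comparisons were 14.6% and 15.7%, 25.2% and 31.4%, 27.0% and 32.5%, 18.3% and 18.1%, and 5.76% and 6.58%. Crmp1 and Dpysl5, both collapsin response mediators, rose by 1.42 and 1.72 in 129CAS MN against CAS129 MN, and Farp1 fell by 0.84. Against 129 MN, CAS129 MN had higher Dpysl3, Cfl1, the actin-severing cofilin, and Rac1, by 1.28, 1.47 and 0.72. Against BL6 MN, CAS129 MN had higher Dpysl3 and Cfl1, by 0.88 and 1.05, and Crmp1 fell by 1.33. In 129 MN against BL6 MN, Rac1 and Mical2 fell by 0.44 and 0.99 and Gsk3b rose by 0.62. In CAST MN against BL6 MN, Rac1, Mical2 and Rras2 fell by 0.73, 1.78 and 1.96.

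The genes whose log2 levels followed the highest semaphorin, the neuropilin and the highest plexin most closely over the 14 MN libraries were sought among 14836 genes. For Sema3c these were Fas, Mfap5 and Gldc, with Pearson's r of 0.953, 0.947 and 0.942. Jam2, Cdc42ep1 and Cdk11b were closest to Nrp2, at 0.941, 0.930 and 0.923. Nup98, Amotl2 and Ppp2r2a were closest to Plxna1, at 0.948, 0.932 and 0.929. These values describe 14 libraries that share genotypes and marker content.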

How the data were processed

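Poly(A) RNA was sequenced, and the authors deposited a table of raw counts of reads for each gene. The submitters' processing notes name STAR and GRCm38 (mm10). No source used here gives the counting program, its annotation or its strand setting. Of 28 columns of counts, 20 carried the name of one sample, and 8 did not and stayed out; 7 samples, for which the notes name TopHat2 2.1.1, SAMtools and HTSeq, were not analysed here. Per the labels' protocols, RNA was treated with DNase, captured on oligo-dT beads and copied from random hexamers. Groups follow cell type and genotype in the sample titles.

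Names, positions and exonic lengths came from GENCODE M21 by gene identifier (27030 of 27071 matched). Counts were tested with edgeR 4.0.16 in R 4.3.3 (TMM scaling, glmQLFit, glmQLFTest, 2-sided, Benjamini-Hochberg adjustment over all genes tested, threshold 0.05), on genes that reached 1 CPM in 2 or more of the fitted libraries. Cell types were compared over 17 libraries with genotype as a term, and within genotypes in a fit of 8 groups. PSC genotypes were compared over 6 libraries and MN genotypes over 14. SE is the absolute log2 change divided by the square root of F. Levels are CPM with TMM factors over all 20 libraries; intervals and limits from counts cover counting error only. The scripts were tested on simulated counts with the same spread for all genes and changes only in well-detected genes. That test does not cover genes of few counts or replicates as uneven as some here. Alternatives were DESeq2 1.42.0, other scalings and filters, thinned counts, a replicate block, other sets of libraries and each library left out.

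Whether replicates are separate cultures is not stated in the labels; the p-values therefore rest on a spread that may be technical. In 28 comparisons of replicate pairs, chi-square over its degrees of freedom was 2.96 to 120.7, so none was treated as a repeat of another. The closest pairs were BL6 MN numbered 5 and 6 (2.96) and CAS129 MN numbered 1 and 2 (3.38). BL6 MN numbered 3, 4 and 7, the libraries with the highest Sema3e, differed from each other by 9.00 to 16.6. The tests and SDs count all these libraries as separate replicates, which may overstate how many there are. The members and lists were chosen with earlier results of these data known. All members were named in every comparison; of the pathway lists, those passing the test with the highest mean CPM were named, up to 4 a list for MN against PSC and up to 3 for each comparison of genotypes. Likeness was measured on log2(CPM + 1), for the highest semaphorin, neuropilin and plexin in MN. Of the pathway lists, Sema4g, Sema5a, Plxnb2 and Rras were not analysed here.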

Additional observations from a re-analysis of the deposited data

Results flagged for a closer look

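In BL6 MN, the only group of 4 to 10 libraries, 1 library stood apart from the other 6 for 2 of the 9 genes, with a gap to its nearest neighbour above Dixon's 95% limit as a share of the group's range. Sema3c was at 276 CPM in the library numbered 4, and Plxna4 at 139 CPM in the library numbered 2. Chance flags about 1 in 20 groups.

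The rise in MN against PSC differed between CAS129 and BL6 by test for 4 genes, by 5.98 for Sema3a, 3.56 for Sema3c, 4.21 for Sema3e and 3.16 for Nrp2 on the log2 scale. Of all genes tested, 13.7% had a higher change in CAS129. Without the BL6 PSC library numbered 1, the difference was 3.29 for Sema3a and 0.33 for Sema3c. Sema3a also rested on 1 count in the CAS129 PSC libraries together.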

How the results depend on the processing

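Of 201 counts of genes of the set that passed, each under 1 alternative, 36 moved by over 1.5 times; no direction of a called gene reversed, and of the values of single genes 1668 stayed on their side of the threshold, 82 lost a call and 42 gained one. In MN against PSC over 17 libraries the count was 8 in all 26 alternatives, including those, chosen after seeing the data, without the PSC libraries numbered 1 or without CAS129. For the difference of that change in CAS129 minus BL6 the count was 4 as reported, 6 with DESeq2 (4 higher and 2 lower), 2 without the PSC libraries numbered 1 (Nrp2 higher and Plxna4 lower), and 2 to 4 with single libraries left out. For CAST minus BL6 it was 0, but 1 with DESeq2, 1 without the PSC libraries numbered 1, and 0 to 1 with single libraries left out. In CAST PSC against BL6 PSC it was 1, but 2 with DESeq2, 3 with no filter, and 0 to 2 with single libraries left out. In CAS129 PSC against CAST PSC it was 1, but 2 with no filter, and 0 to 1 with single libraries left out. In 129 MN against BL6 MN it was 4, but 2 with no filter, 2 with thinned counts, and 1 to 6 with single libraries left out. In CAST MN against BL6 MN it was 1, but 3 with DESeq2, 2 with thinned counts, and 0 to 3 with single libraries left out. With single libraries left out it was 1 to 5 in CAS129 MN against 129 MN (6 as reported) and 1 to 2 in 129CAS MN against CAS129 MN (3 as reported). The number of all genes called moved too, so the counts of the set are not read here as particular to it. In MN against PSC, 11642 of all genes were called as reported, 10101 with a replicate block and 12126 with no filter. For CAS129 minus BL6 there were 2884 as reported and 3316 with DESeq2. The cause of these moves was not tested beyond the fewer samples or other genes tested.

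Same-numbered libraries did not meet the rule for pairs: the correlation of their deviations was 0.358, -0.0962 and 0.543 between PSC groups, which share 2 numbers, and -0.207 to 0.714 between MN groups. With the replicate number as a block the count was 3 in CAST PSC against BL6 PSC (1 without it) and 0 in CAST MN against BL6 MN (1 without it), and the other comparisons with a block stayed within 1.5 times. Under the block Sema3a in 129 MN against BL6 MN was at -0.19 (adjusted p = 0.582), against -0.80 without it, and Sema3f passed there (-0.84, adjusted p = 0.0334). In CAS129 MN against BL6 MN, Sema3a and Plxna4 passed (0.89 and -0.99, adjusted p = 0.00816 and 0.0162) and Nrp2 did not (0.33, 0.0806). In CAST MN against BL6 MN, Plxna2 was at 0.83 (adjusted p = 0.201). In PSC, Sema3a and Nrp2 passed in CAST against BL6 (adjusted p = 0.0468 and 0.0439) and Sema3a in CAS129 against BL6 (0.00962). The number of all genes called moved by over 1.5 times in at least 1 alternative for 7 of 14 comparisons, most in CAST PSC against BL6 PSC, with 1455 genes as reported and 226 to 2682 in the alternatives. With 1 to 3 libraries in most groups, small changes and genes of a few counts in PSC (Sema3a, Sema3d) are measured least well.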
